A study of Homo sapiens with 8 samples.

Results

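Of 56632 genes counted in a human breast cancer progression series, 123 protein-coding genes met a rule of rising mean levels from M1 through M2 and M3 to M4. They were chosen by their measured values, and 3 of them had no count in M1 and M2 and so passed the first step at 0. Counts were divided by the total count of the library and expressed as CPM, counts scaled to 1000000 per library, the 2 replicates of a line were averaged, and a gene was kept when its mean was at least 1.3 times that of the previous line at each of the 3 steps and at least 5 CPM in M4. The 123 genes are 1.22% of the 10048 protein-coding genes that reached 5 CPM in M4, out of 19320 protein-coding genes in all. The mirrored rule, with the same ratio downwards and at least 5 CPM in M1, found 148 genes.

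All 4 lines descend from MCF10A, a spontaneously immortalized, non-tumorigenic line of human mammary epithelial cells, which is M1. M2 (MCF10AT1k.cl2) is MCF10A transfected with the activated T24-HRAS oncogene and passed through a xenograft, and it forms premalignant lesions. M3 (MCF10Ca1h) and M4 (MCF10CA1a.cl1) came from carcinomas that arose from xenografted M2 cells. In mice the tumours of M3 are low-grade carcinomas, whereas those of M4 have lost much of their differentiation and M4 cells can also settle in the lung from the bloodstream. Each stage is therefore 1 derived line, of which 2 replicate cultures were sequenced, and differences between stages cannot be told apart from differences between individual derived lines. All were grown as acini in Matrigel for 8 days in medium with 2% horse serum, hydrocortisone, cholera toxin and insulin, M1 and M2 with 10 ng/ml epidermal growth factor (EGF) and M3 and M4 without it. At the step from M2 to M3 the change of line and the removal of EGF cannot be told apart.

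Oncogenic HRAS holds the RAF, MEK and ERK kinases active, and ERK drives transcription of growth factor genes, of AP-1 transcription factor subunits such as FOSL1, and of its own inhibitors, the DUSP phosphatases and Sprouty proteins. Cholesterol synthesis is controlled separately, by SREBP transcription factors that are released when membrane sterol is low and switch on the enzymes of the pathway together. Squamous differentiation, a property of stratified epithelia that cultured mammary epithelial cells can take on, uses a cluster of small cornified envelope proteins on chromosome 1.

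Library totals ran from 69669970 to 107350344 counts. Over 13483 genes with at least 20 counts in every library, Spearman's correlation between the 2 replicates was 0.998 (M2), 0.986 (M4), 0.977 (M3) and 0.971 (M1), and M1 libraries correlated with M2 libraries at 0.959 to 0.963. The M2 libraries were closer to each other than those of the other lines, with a chi-square per degree of freedom of 6.95 against 136 to 361, but still differed by more than counting noise. The study's own expression table carries the library labelled M1 replicate 2 under M2 and the library labelled M2 replicate 1 under M1. The labels of the deposited samples are used here, and with these 2 libraries exchanged 37 genes met the rule, 17 of them among the 123. HRAS, the transfected gene, had 158 and 136 CPM in the M1 libraries, 159 and 155 for M2, 243 and 330 for M3, then 354 and 362 for M4. The difference between M2 and M1 was not significant (log2 fold change 0.10, SE 0.15, edgeR adjusted p = 0.736), and M4 was higher than M1 (1.23, SE 0.15, adjusted p = 0.00119). Reads of the introduced and the endogenous HRAS were counted together. All 9 mammary epithelial markers reached 1 CPM in at least 1 library, among them KRT5, KRT17 and CDH1. KRT19 did so only in M1, with a mean of 2.76 CPM, and was at most 0.957 CPM in the other lines. Mean levels of KRT5, KRT14, KRT19 and TP63 were lower in M4 than in M1, and those of EPCAM, CDH1, KRT8, KRT17 and KRT18 higher. COL1A2, which marks fibroblasts, was at 0 in every library, while COL1A1 had means of 16.4, 13.5, 10.4 and 6.98 CPM from M1 to M4. Of 4 immune markers PTPRC did not pass 0.0359 CPM and CD3E was at 0 in every library, while CD68 had means of 6.86, 5.99, 14.4 and 47.1 CPM from M1 to M4 and CD14 of 19.6, 4.56, 3.75 and 1.62, so that their sum ran from 8.67 to 56.4 CPM over the libraries and was highest in M4. The summed level of 6 fibroblast markers ran from 6.60 to 74.2 CPM and was highest in M2, mostly through DCN, at about 60 CPM in both M2 libraries and 34.9 and 1.59 CPM in M1. The part of these in the results below was not tested. Whether more cells made an RNA or each cell made more of it cannot be told apart in bulk libraries.

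The 123 genes climbed by similar amounts at each step. The median ratio of means was 1.71 from M1 to M2, 1.92 from M2 to M3 and 2.00 from M3 to M4, and 7.22 from M1 to M4, with a lowest value of 2.52 for SIAH2. As log2 values the medians over the 3 steps were 0.77, 0.94 and 1.00, beside 0.04, -0.07 and 0.15 over all 10048 measured protein-coding genes. Of the 117 genes with a ratio at every step, the largest ratio was at the first step in 30, at the second in 37 and at the third in 50. These ratios are what the genes were selected on and describe them only.

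**Figure D1:**
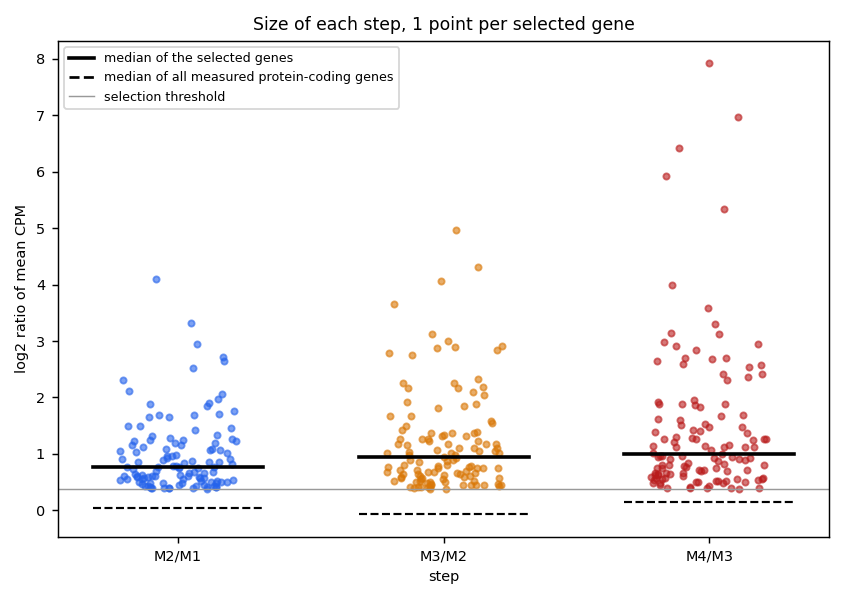
Each point is 1 selected gene, plotted as the log2 ratio of mean CPM (vertical axis) at the 3 steps (horizontal axis). Solid bars mark the medians of the selected genes (0.77, 0.94 and 1.00), dashed bars those of all 10048 measured protein-coding genes, and the grey line the ratio of 1.3; the highest points are at the last step.

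The individual libraries mostly kept the order of the means. In 92 of the 123 genes both libraries of each line were above both libraries of the line before it at all 3 steps, which is meant below by libraries in order, while 3.04% of the measured protein-coding genes had this order. The libraries did not overlap in 107 genes at the first step, 117 at the second and 111 at the third. The share of all measured genes at each single step was not computed, and the 123 were selected on these steps. An edgeR quasi-likelihood fit of all 18431 genes with enough counts, with a call at a Benjamini-Hochberg adjusted p under 0.05, called 30 of the 123 genes higher in M2 than in M1, where 3.37% of all tested genes were called higher. It called 33 higher in M3 than in M2 (3.98% of all tested) and 55 higher in M4 than in M3 (7.05% of all tested). All 123 were called higher in M4 than in M1, a comparison in which 15.6% of all tested genes were called higher and 15.8% lower. The rule used the same libraries, so these counts say only how many of the steps were large against the replicate spread. Successive steps also share the libraries of the line between them. The calls fell on all 3 steps in 11 genes, on 2 steps in 21, on 1 step in 43 and on no single step in 48. The 11 genes were FDPS, INHBA, UPP1, CXCL8, FOSL1, TMEM154, RAP1GAP2, GALNT3, UBASH3B, BMAL2 and DUSP5. With M1 replicate 2 and M2 replicate 1 exchanged, edgeR called 0 of all tested genes higher at the first step. Of the 123, 0 were called there also at an unadjusted p under 0.05, and 61 had a higher mean in M2 than in M1. None of the 11 was therefore called at all 3 steps.

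Calls at the first 2 steps became far fewer when an M2 library was left out, among all tested genes as well as among the 123. Such a fit rests on 1 library of that line. Without M2 replicate 1 and without M2 replicate 2, 120 and 117 of the 123 still had a positive log2 fold change from M1 to M2. From M2 to M3 all 123 had one in both cases. At the last step fewer of the 123 were called without M4 replicate 1, M4 replicate 2 or M3 replicate 1. The calls over all tested genes were not counted there. The replicates of a line differed by a median factor of 1.36 (M1), 1.06 (M2), 1.35 (M3) and 1.26 (M4) over these genes.

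**Figure D2:**
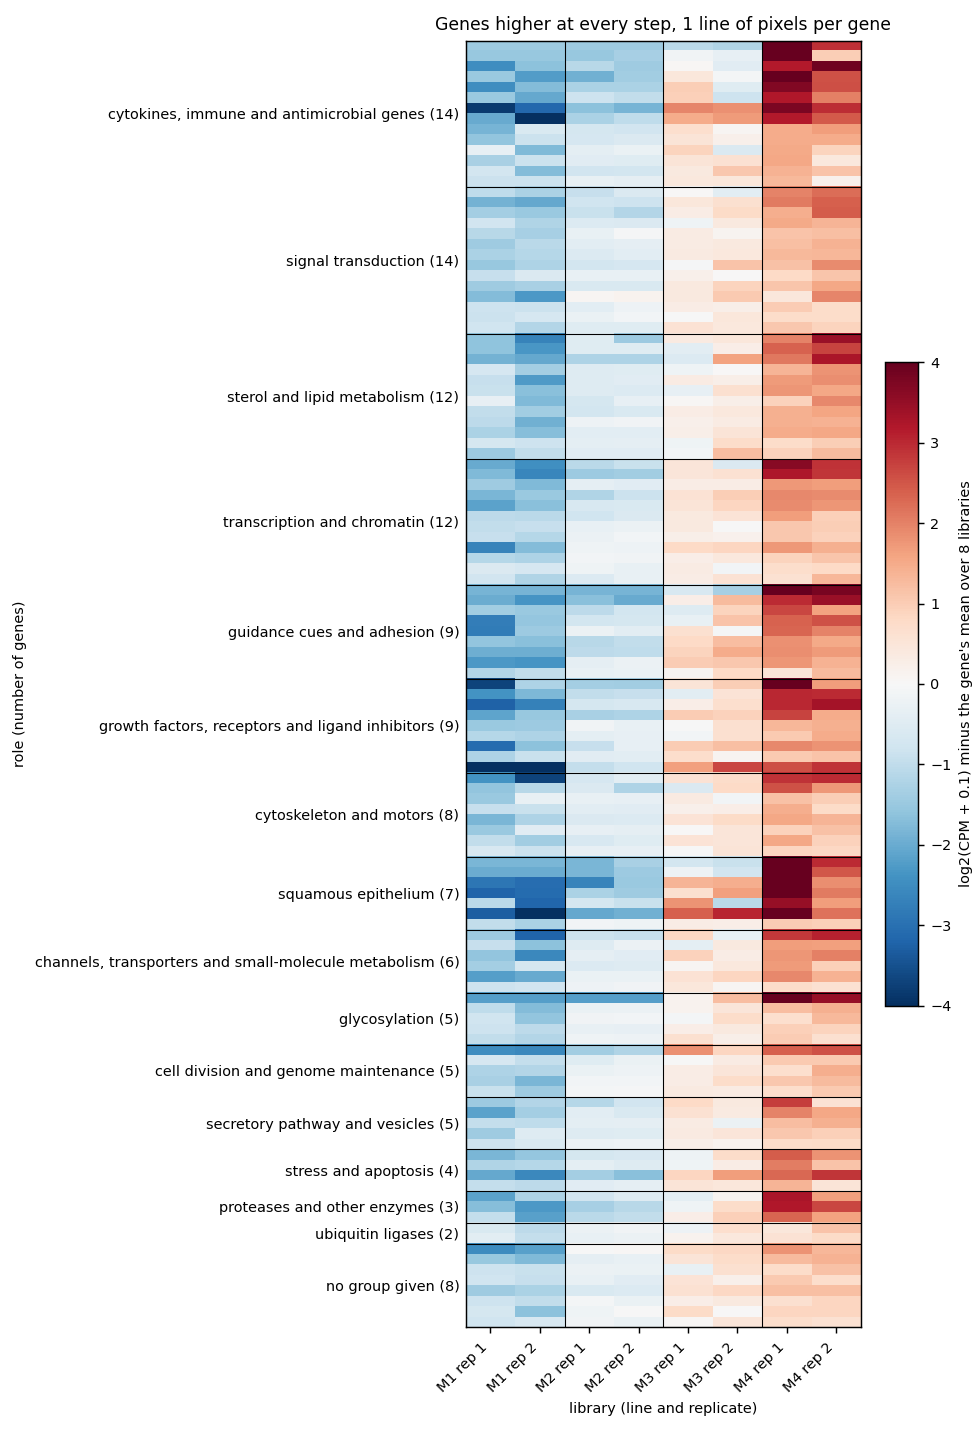
Heat map of the 123 genes, 1 thin band per gene, grouped by role (vertical axis, number of genes in brackets) over the 8 libraries (horizontal axis). Colour gives log2(CPM + 0.1) minus the mean of the gene over the 8 libraries; blue in M1 gives way to red in M4 in every role, and several squamous, cytokine and immune genes are much darker in M4 replicate 1 than in M4 replicate 2.

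The growth factor and receptor genes held 9 of the 123. INHBA encodes the subunit that forms activin A. Levels of INHBA were 3.21 and 4.61 CPM (M1), 18.95 and 19.6 (M2), 36.96 and 49.7 (M3), then 251 and 309 (M4). No library of any line overlapped with the line before, and the M4 mean was 71.7 times the M1 mean. FST encodes follistatin, the secreted inhibitor that binds activin. For FST the M1 libraries had 0.359 and 2.45 CPM, the M2 libraries 2.23 and 2.196, the M3 libraries 8.44 and 11.7, the M4 libraries 140.5 and 19.2. The M4 replicates lay far apart, and M1 replicate 2 was above both M2 libraries. Other genes of the TGF-beta and BMP list moved in both directions, 6 of 33 tested being higher in M4 than in M1 and 13 lower.

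EREG, HBEGF and NRG1 encode ligands of the EGF receptor family, and M3 and M4 were the lines grown without added EGF. In line order EREG measured 0.768 and 0.754, 7.17 and 7.94, 43.1 and 88.3, then 83.7 and 103 CPM. EREG (epiregulin) gained most before M4, and the M3 and M4 libraries overlapped. HBEGF counts came to 5.35 and 8.19 CPM with M1, 14.3 and 15.1 with M2, 21.1 and 42.2 with M3, then 231 and 226 with M4. HBEGF, the heparin-binding member of the family, made most of its gain at the last step, by a factor of 7.20. NRG1 gave 0.718 and 1.11 CPM for M1, 1.31 and 1.38 for M2, 6.99 and 6.59 for M3, then 22.9 and 9.71 for M4. NRG1 (neuregulin 1) binds ERBB3 and ERBB4 and was at low levels in M1 and M2. WNT7A, a WNT ligand, went from a mean of 0.271 CPM in M1 to 6.08 in M4. Among 32 other WNT pathway genes tested, 3 were higher in M4 than in M1 and 12 lower.

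The receptors were MET and MST1R, closely related kinases that bind hepatocyte growth factor and macrophage-stimulating protein, and CDCP1, a transmembrane substrate of SRC kinases. Levels of MET were 49.1 and 63.3 CPM (M1), 84.2 and 86.6 (M2), 189 and 127 (M3), then 242 and 256 (M4). For MST1R the M1 libraries had 21.6 and 21.9 CPM, the M2 libraries 54.3 and 49.4, the M3 libraries 60.01 and 94.4, the M4 libraries 153 and 161. Neither gene overlapped between successive lines, the largest ratio of MST1R was 2.38 at the first step, and CDCP1 had M4 levels 5.597 times those of M1. Of the 29 other receptor tyrosine kinase genes tested 1 was higher in M4 than in M1 (EPHA2) and 9 were lower.

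Genes of the ERK response were recorded from a list of 24, all tested, of which DUSP5, EREG, FOSL1, HBEGF and SPRY4 were among the 123. In line order DUSP5 measured 3.92 and 3.497, 8.48 and 8.397, 20.5 and 23.2, then 62.8 and 78.9 CPM. DUSP5, a nuclear phosphatase that inactivates ERK, was called at each of the 3 steps. SPRY4 counts came to 6.895 and 8.47 CPM with M1, 11.95 and 12.6 with M2, 19.2 and 44.4 with M3, then 45.3 and 74.7 with M4. SPRY4, a Sprouty inhibitor of RAS to ERK signalling, was ordered the same way, with a wide gap between its M3 libraries. Of the other 19 genes of the list 10 were higher in M4 than in M1 and 2 lower, SPRY1 and EPHA4. They did not meet the ratio at each step. AREG, another EGF receptor ligand, and DUSP6, a cytoplasmic ERK phosphatase, had means of 57.6 and 68.2 CPM for M1, 374 and 148 for M2, 683 and 431 for M3, then 277 and 193 for M4, so both peaked in M3. Over the 22 measured genes of the list the median log2 step was 0.43, 1.304 and 0.12.

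Other signalling genes were RAP1GAP2, a GTPase-activating protein of RAP1, RAP2B, a RAS-like GTPase, and UBASH3B, a phosphatase that acts on tyrosine kinases. UBASH3B gave 20.3 and 22.1 CPM for M1, 33.2 and 36.9 for M2, 62.4 and 66.2 for M3, then 121 and 122 for M4. TRIB3, a pseudokinase induced by ATF4, was the only one of the 26 genes of the ATF4 and unfolded protein response list among the 123, and of the 25 others 13 were higher in M4 than in M1 and 1 lower. The 14 genes of this role had M4 to M1 ratios with a median of 5.80, and 13 of them kept all libraries in order. The exception was PPP2R2C, a regulatory subunit of protein phosphatase 2A, whose M4 libraries read 28.3 and 79.6 CPM.

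**Figure D3:**
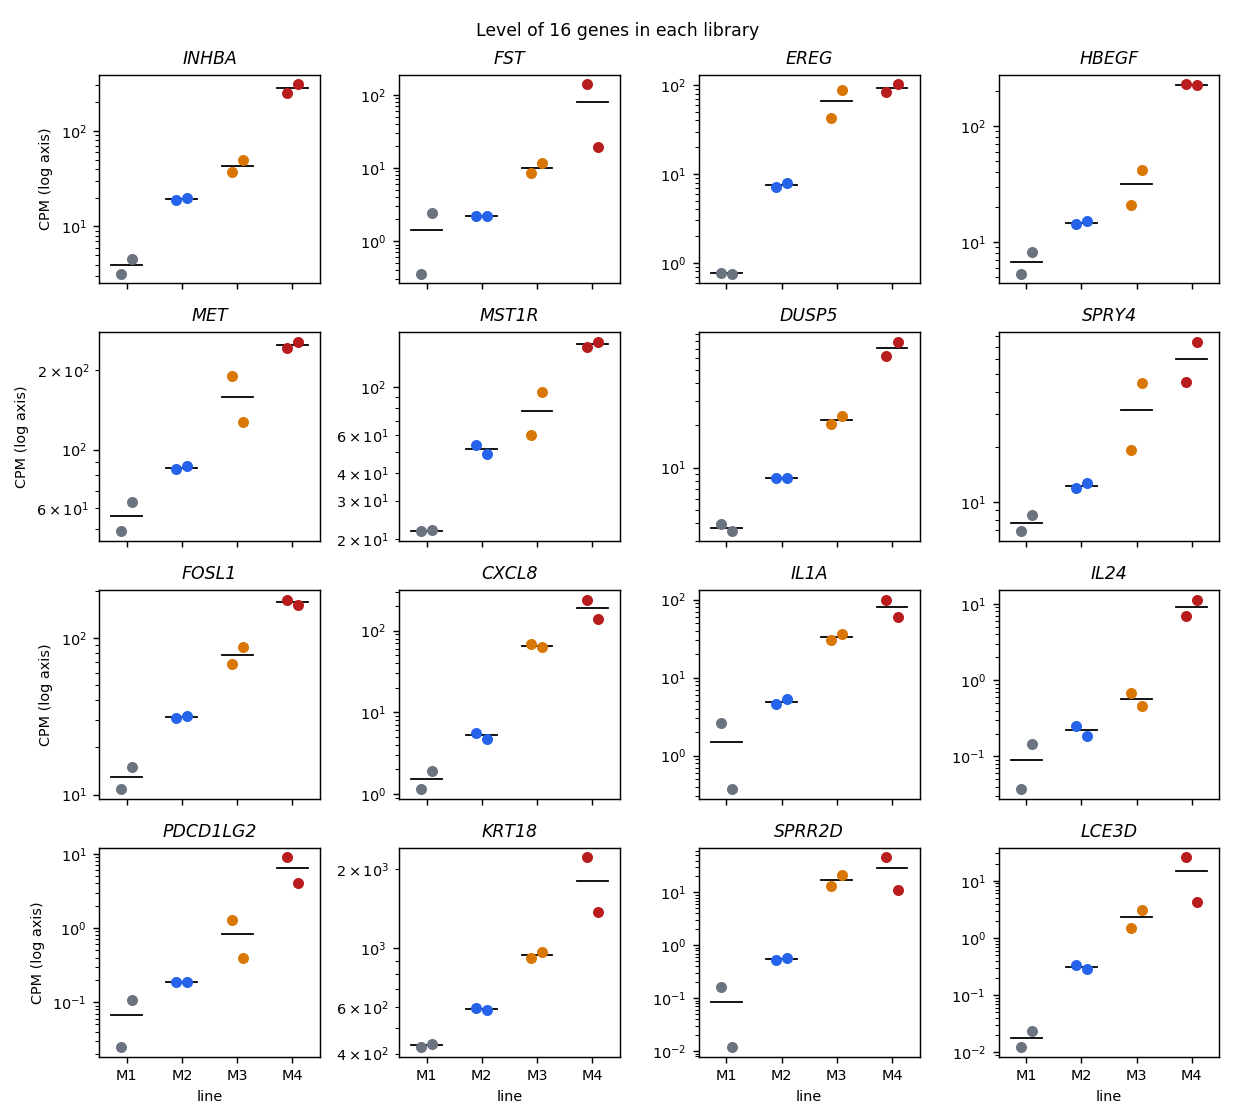
Level of 16 of the genes in each of the 8 libraries. Each panel has the 4 lines on the horizontal axis and CPM on a log axis, points are single libraries and bars are the mean of 2 replicates; INHBA, MST1R, DUSP5, FOSL1 and CXCL8 rise without overlap, while the M4 replicates of FST, SPRR2D and LCE3D lie far apart.

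The 12 genes of transcription and chromatin were led by FOSL1, the FRA-1 subunit of AP-1. Levels of FOSL1 were 10.8 and 15.1 CPM (M1), 30.9 and 31.6 (M2), 68.8 and 87.3 (M3), then 176 and 162 (M4). Its ratios at the 3 steps were 2.41, 2.50 and 2.17. ELK3, an ETS factor that ERK phosphorylates, and HMGA2, an architectural protein of embryonic chromatin, were in order in every library. For HMGA2 the M1 libraries had 3.999 and 7.699 CPM, the M2 libraries 23.03 and 22.8, the M3 libraries 45.4 and 46.9, the M4 libraries 86.5 and 69.4. HMGA2 had its largest ratio at the first step, and HDAC9, a class IIa histone deacetylase, and PRDM1, the repressor also called BLIMP1, had theirs at the last. In line order HDAC9 measured 0.891 and 0.635, 1.801 and 2.04, 5.44 and 2.58, then 49.8 and 29.3 CPM. BMAL2, a partner of CLOCK in the circadian heterodimer, was called at each step, with M1 libraries of 9.98 and 7.84 CPM and M4 libraries of 87.9 and 85.4 CPM. ZNF266 was the single member among 236 measured genes named ZNF, and of the 402 such genes tested 92 were lower in M4 than in M1 and 34 higher. In all 12 of these genes the libraries were in order at all 3 steps.

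AP-1 binds TGACTCA or its reverse complement TGAGTCA, and the promoters of 6 of the 123 genes held these letters. A promoter here is the window from 250 bases before to 50 bases after the RefSeq start, in GRCh38.p14, and 94 of the 123 genes and 8308 of the measured genes had one. The share with the letters, searched on both strands, was 6.38% of the 94 and 3.00% of the 8308. The genes were CXCL8, IL1A, SPHK1, SPRR2A, INSC and HSPA6, of which the first 4 are printed because they stand for the cytokine, lipid kinase and squamous groups that follow. Each is read 5′ to 3′ on the strand of its gene, the capitals mark every match, and the position of a match is that of its first base counted from the start site. The windows are chr4:73740319-73740618 on the plus strand for CXCL8 (match at -137), chr2:112784444-112784743 on the minus strand for IL1A (matches at -12 and 39), chr17:76382954-76383253 on the plus strand for SPHK1 (match at -6) and chr1:153057463-153057762 on the minus strand for SPRR2A (match at -197).
CXCL8: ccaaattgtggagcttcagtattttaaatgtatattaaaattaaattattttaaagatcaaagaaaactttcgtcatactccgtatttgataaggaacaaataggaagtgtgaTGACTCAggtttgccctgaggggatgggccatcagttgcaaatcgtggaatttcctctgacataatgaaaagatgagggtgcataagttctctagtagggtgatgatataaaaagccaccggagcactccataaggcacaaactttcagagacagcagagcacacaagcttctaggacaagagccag
IL1A: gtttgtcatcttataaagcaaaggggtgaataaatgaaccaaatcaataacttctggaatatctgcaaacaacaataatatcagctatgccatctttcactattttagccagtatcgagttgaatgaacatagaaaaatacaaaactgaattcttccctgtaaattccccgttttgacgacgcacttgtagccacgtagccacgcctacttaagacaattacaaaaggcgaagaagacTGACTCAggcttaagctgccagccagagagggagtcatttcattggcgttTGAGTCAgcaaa
SPHK1: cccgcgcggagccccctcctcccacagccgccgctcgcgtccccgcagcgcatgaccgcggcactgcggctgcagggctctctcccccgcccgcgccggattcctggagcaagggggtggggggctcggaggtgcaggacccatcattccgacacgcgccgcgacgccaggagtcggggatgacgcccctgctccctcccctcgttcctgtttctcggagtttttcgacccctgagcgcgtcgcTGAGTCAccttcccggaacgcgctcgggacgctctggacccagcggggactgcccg
SPRR2A: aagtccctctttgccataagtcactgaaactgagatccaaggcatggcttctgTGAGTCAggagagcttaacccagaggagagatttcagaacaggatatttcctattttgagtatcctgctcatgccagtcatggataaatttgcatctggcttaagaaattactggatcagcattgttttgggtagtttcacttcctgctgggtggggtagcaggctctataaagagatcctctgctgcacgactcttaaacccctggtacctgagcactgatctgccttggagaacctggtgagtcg
A match is a description of the letters and not of binding. Other short motifs had higher, similar or lower shares in the 94 promoters than in the 8308. TATAAA was in 8.51% of the 94 and 5.08% of the 8308, and GAAANNGAA, letters of interferon response elements, in 9.57% and 6.36%. TGACGTCA, bound by CREB and ATF proteins, was in 4.26% and 3.55%, CCAAT, bound by NF-Y, in 35.1% and 37.4%, and CGGAAG, the core of ETS factor sites, in 22.3% and 36.0%.

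The cytokine, immune and antimicrobial genes were 14. CXCL8 counts came to 1.14 and 1.92 CPM with M1, 5.63 and 4.77 with M2, 68.6 and 62.4 with M3, then 240.5 and 139 with M4. CXCL8 (interleukin 8) attracts neutrophils, and its largest gain, 12.6-fold, was from M2 to M3. IL1A gave 2.65 and 0.371 CPM for M1, 4.53 and 5.31 for M2, 30.5 and 36.2 for M3, then 99.99 and 60.2 for M4. Levels of IL24 were 0.0371 and 0.144 CPM (M1), 0.255 and 0.187 (M2), 0.684 and 0.463 (M3), then 6.85 and 11.4 (M4). IL1A, an alarmin of the interleukin 1 family, had its largest ratio at the second step, and IL24, a cytokine of the interleukin 10 family, at the last. For PDCD1LG2 the M1 libraries had 0.0248 and 0.108 CPM, the M2 libraries 0.186 and 0.187, the M3 libraries 1.29 and 0.394, the M4 libraries 8.98 and 4.01. PDCD1LG2 encodes PD-L2, a ligand of the T cell receptor PD-1, and its 8 values were in order. IL32 and the complement regulator CD55 were also in this group, with M4 to M1 ratios of 6.87 and 5.39. Among 21 other complement and coagulation genes tested, 4 were higher in M4 than in M1 and 8 lower. Of the 24 other cytokine and chemokine genes tested 9 were higher in M4 than in M1 and 4 lower. IL1B was among the higher ones (log2 fold change 6.63, SE 0.61, adjusted p = 0.000473) but had a lower mean in M2 than in M1, while CXCL14 was lower (-8.86, SE 0.76, adjusted p = 0.000341).

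In this group M4 replicate 1 exceeded M4 replicate 2 in 12 of 14 genes, by more than 2-fold in 7. Without M4 replicate 1 only 7 of the 14 met the rule, and 5 of the 14 had their libraries in order. In line order HLA-B measured 12.6 and 17.2, 22.7 and 22.2, 45.2 and 47.5, then 92.2 and 41.95 CPM. HLA-B, a classical MHC class I heavy chain, and the immunoproteasome subunit PSMB9 overlapped between M3 and M4. PSMB9 was not called in M4 against M1 with the exchange of the M1 and M2 libraries (edgeR adjusted p = 0.103). Among 15 other MHC class I and antigen processing genes tested, 6 were higher in M4 than in M1 and 1 was lower. The lower one was HLA-C (log2 fold change -1.75, SE 0.23, edgeR adjusted p = 0.00162), with means of 156 CPM in M1 and 48.3 in M4. RSAD2, an interferon-induced antiviral enzyme, had 11.2 and 0.460 CPM in M4 and was the only one of 31 measured interferon-stimulated genes to be among the 123, although 21 of the other 36 tested were higher in M4 than in M1 and 3 were lower. Over that list the median log2 ratio was 0.15, -0.19 and 1.58 at the 3 steps. All 31 measured genes of the list were higher in M4 replicate 1 than in M4 replicate 2, and against the M3 mean the median was 1.96 for M4 replicate 1 and 0.58 for M4 replicate 2. In place of 21 other genes, edgeR called 9 higher without M4 replicate 1, 8 without M1 replicate 1 and 8 with the exchange of the M1 and M2 libraries. RNASE7 and DEFB103B encode antimicrobial proteins of epithelial surfaces, and HLA-B, DEFB103B and APOBEC3B have near-identical relatives between which reads may have been split.

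The 12 genes of sterol and lipid metabolism included 7 of the 23 measured genes of the cholesterol synthesis list (30.4%). HMGCS1 counts came to 83.7 and 50.5 CPM with M1, 183 and 185 with M2, 191 and 309 with M3, then 1302 and 1676 with M4. FDPS gave 178 and 132 CPM for M1, 319.97 and 318 for M2, 503 and 604 for M3, then 1193 and 1244 for M4. HMGCS1 makes HMG-CoA, from which mevalonate is formed, and FDPS makes farnesyl diphosphate, from which sterols and the lipid anchors of RAS proteins are built. Levels of CYP51A1 were 92.9 and 57.5 CPM (M1), 103 and 106 (M2), 131 and 149 (M3), then 375 and 518 (M4). For HSD17B7 the M1 libraries had 11.9 and 8.88 CPM, the M2 libraries 13.9 and 15.4, the M3 libraries 28.8 and 31.5, the M4 libraries 63.3 and 70.6. CYP51A1 and HSD17B7 act late in the pathway, after lanosterol is formed. In line order INSIG1 measured 63.2 and 24.8, 83.96 and 87.2, 149.6 and 139, then 386 and 433 CPM. INSIG1 retains the SREBP escort protein in the endoplasmic reticulum when sterol is high, and STARD4 carries cholesterol between membranes. In all 7 genes M1 replicate 1 was above M1 replicate 2, and no M2 library was below an M1 library. FDPS was called at every step and HSD17B7 at the last 2, HMGCS1 and STARD4 at the first and last, and CYP51A1 and INSIG1 at the last only.

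The remaining genes of the list mostly moved at the last step, of 17 others tested 14 being higher in M4 than in M1. Over the 23 measured genes 16 met the ratio of 1.3 at the first step, 7 at the second and 22 at the third, so that the second step decided which genes were selected. The median log2 ratio from M1 to M4 was 2.32 over the list and 0.18 over all measured genes. The single gene of the list that was lower was ACAT2, the cytosolic acetoacetyl-CoA thiolase, with 39.4 and 19.9 CPM for M1, 57.2 and 54.6 for M2, 92.1 and 81.7 for M3, then 0.540 and 0.572 for M4 (M4 against M1, log2 fold change -5.79, SE 0.35, edgeR adjusted p = 0.00013). It met the ratio of 1.3 at both steps up to M3 and was under 1 CPM in both M4 libraries. Membership was sensitive to M1 replicate 2 and M3 replicate 2, without which 7 of the 12 lipid genes still met the rule in either case, and with the exchange of the M1 and M2 libraries described above none did.

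**Figure D4:**
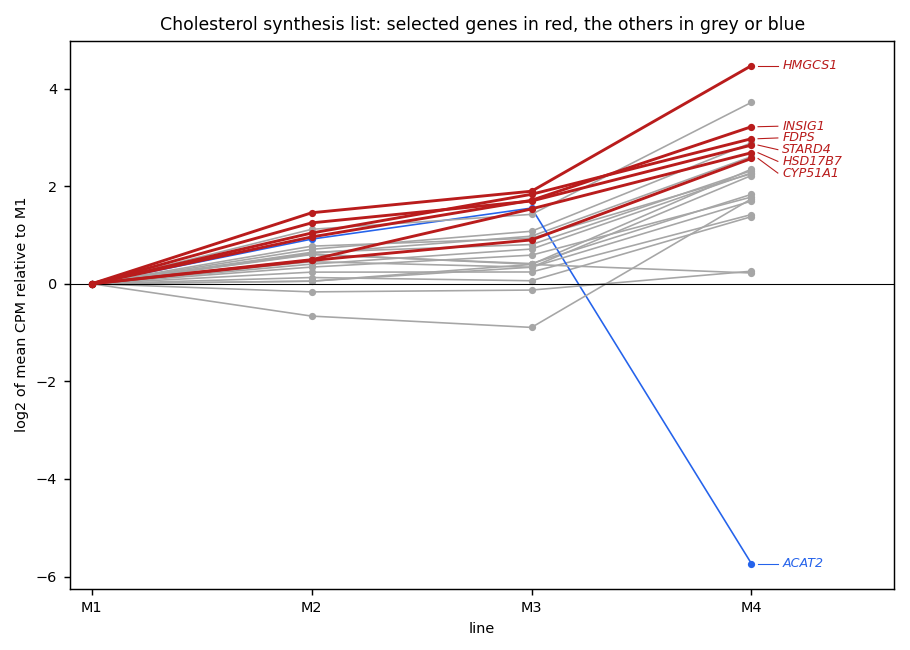
Cholesterol synthesis list by line (horizontal axis), each trace being the log2 of mean CPM relative to M1 (vertical axis) of 1 gene with at least 5 CPM in M4 or of ACAT2. The 6 selected genes drawn are red, from 5.93 to 22.2 times M1 in M4, the others grey, and ACAT2 (blue) rises with them to M3 and then drops.

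Promoters of HMGCS1 and FDPS are shown as those of the cholesterol genes with the highest M4 levels. Of the 6 cholesterol genes with a promoter in the table CCAAT or its reverse complement ATTGG was present in 5, all but CYP51A1, beside 37.4% of the 8308 promoters. Of the other lipid genes with a promoter, CYP4F11 also had a match (at -59), and GPAT3, SPHK1 and ASAH2B had none. The letters TCACNCCAC, 1 spelling of the sterol regulatory element, were in none of the 6 windows, and in 1.06% of the 94 promoters and 1.04% of the 8308. The windows are chr5:43313363-43313662 on the minus strand for HMGCS1 and chr1:155308616-155308915 on the plus strand for FDPS in GRCh38.p14, with capitals on CCAAT and ATTGG.
HMGCS1: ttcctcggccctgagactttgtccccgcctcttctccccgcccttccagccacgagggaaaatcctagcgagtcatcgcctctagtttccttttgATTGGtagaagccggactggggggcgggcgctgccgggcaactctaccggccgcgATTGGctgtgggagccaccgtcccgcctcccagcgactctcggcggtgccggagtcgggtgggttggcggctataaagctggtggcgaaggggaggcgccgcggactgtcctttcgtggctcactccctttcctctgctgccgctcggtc
FDPS: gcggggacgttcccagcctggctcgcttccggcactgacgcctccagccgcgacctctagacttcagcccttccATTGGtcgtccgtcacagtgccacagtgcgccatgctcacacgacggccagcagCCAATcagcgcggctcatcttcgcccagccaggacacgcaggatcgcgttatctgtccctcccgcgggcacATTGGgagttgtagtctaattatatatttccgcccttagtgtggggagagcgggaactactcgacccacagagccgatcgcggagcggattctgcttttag
The matches begin at -155 and -100 in HMGCS1 and at -176, -122 and -51 in FDPS.

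The other lipid genes acted outside sterol synthesis. SPHK1 counts came to 14.2 and 19.6 CPM with M1, 28.5 and 28.6 with M2, 36.1 and 90.98 with M3, then 73.9 and 94.03 with M4. SPHK1 makes sphingosine 1-phosphate, and its M3 and M4 libraries overlapped. GPAT3 gave 2.76 and 2.44 CPM for M1, 4.39 and 4.35 for M2, 7.18 and 32.2 for M3, then 45.3 and 101 for M4. GPAT3, which starts triglyceride synthesis, had the widest gap between M3 replicates among the lipid genes. OLAH, a thioesterase that ends fatty acid synthesis early, had means of 0.129, 0.406, 1.13 and 6.87 CPM from M1 to M4. CYP4F11, an omega-hydroxylase of fatty acids, and ASAH2B complete the group, and reads of ASAH2B may be shared with its relative ASAH2. Apart from CYP4F11 and CYP51A1, 25 cytochrome P450 genes were tested, 1 being higher in M4 than in M1 and 9 lower.

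The genes of squamous epithelium were 7, and 5 of them are in the epidermal differentiation complex of chromosome 1. Levels of SPRR2D were 0.161 and 0.012 CPM (M1), 0.519 and 0.5695 (M2), 13.1 and 21.1 (M3), then 45.99 and 11.3 (M4). For SPRR2A the M1 libraries had 0.0248 and 0.012 CPM, the M2 libraries 0.0489 and 0.234, the M3 libraries 2.27 and 2.45, the M4 libraries 37.9 and 3.22. In line order LCE3D measured 0.0124 and 0.0239, 0.333 and 0.287, 1.51 and 3.11, then 25.7 and 4.34 CPM. SPRR2 and LCE3 proteins are cross-linked into the cornified envelope, and all 3 genes were near 0 in M1, while the M3 and M4 libraries of SPRR2D overlapped. SPRR2E and CRCT1 had no count in M1, and reached 20.4 and 2.08 CPM, and 14.9 and 2.73 CPM, in M4. With 3 counts over both M1 libraries as the floor, the M4 means of SPRR2E and CRCT1 were at least 616-fold and 483-fold higher. M4 replicate 1 was above M4 replicate 2 in all 7 genes, by more than 2-fold in 6, and without M4 replicate 1 only 2 of the 7 met the rule. SERPINB7, a serine protease inhibitor of keratinocytes, overlapped between M2 and M3, and of 19 other serpin genes tested 5 were higher in M4 than in M1 and 7 lower. The SPRR2 genes are near-identical in sequence, so their separate values are uncertain.

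Other members also began at 0. CEACAM5, an adhesion glycoprotein known as a tumour marker, HS3ST2, a heparan sulfate sulfotransferase, and DEFB103B had no count in both M1 and both M2 libraries, so that they met the first ratio as 0 against 0. CEACAM5 counts came to 0 and 0 CPM with M1, 0 and 0 with M2, 0.137 and 0.0463 with M3, then 17.98 and 4.96 with M4. Their M4 means were at least 628-fold, 333-fold and 305-fold above the M1 floor. RSAD2 had no count in M1 and was at least 320-fold higher in M4. Fewer than 10 counts over both M1 libraries were present for 9 of the 123 genes, and their first ratio rests on those few reads.

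The cytoskeletal genes included KRT18, the simple-epithelium keratin, and PXN, the focal adhesion adaptor paxillin. KRT18 gave 424 and 437 CPM for M1, 595 and 584 for M2, 923 and 973 for M3, then 2208 and 1375 for M4. KRT18 was in order in every library, and its partner KRT8 was not selected, with 741 and 774 CPM in M1 and 2412 and 1387 in M4. Among 25 other keratin genes tested, 8 were higher in M4 than in M1 and 9 lower. Levels of PXN were 170.01 and 144 CPM (M1), 207 and 209 (M2), 257 and 377 (M3), then 473 and 462 (M4). PXN was called at no single step. SMTN (smoothelin) and MICAL2, an actin-oxidizing enzyme, were also in order, and the myosin heavy chain MYH15 went from 0.446 and 0.120 CPM in M1 to 20.9 and 22.3 in M4, called at the first and last steps.

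Guidance and adhesion genes showed some of the widest ranges. For DCBLD2 the M1 libraries had 53.4 and 53.9 CPM, the M2 libraries 100.1 and 103, the M3 libraries 386 and 577, the M4 libraries 756 and 677. DCBLD2, a neuropilin-like receptor, made a 4.75-fold gain from M2 to M3. In line order L1CAM measured 3.14 and 3.01, 12.2 and 13.3, 31.8 and 33.1, then 53.2 and 41.5 CPM. L1CAM, a neural adhesion molecule, was called at the first 2 steps. SEMA7A counts came to 0.483 and 0.347 CPM with M1, 0.626 and 0.474 with M2, 2.69 and 5.44 with M3, then 18.1 and 25.2 with M4. SEMA7A and SEMA3B are semaphorins, and NTN1 (netrin 1) and SLIT2 are secreted guidance cues that went from means of 0.477 and 1.49 CPM in M1 to 13.002 and 20.4 in M4. The 9 genes had a median M4 to M1 ratio of 14.5, and 6 of them kept all libraries in order.

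The median M4 to M1 ratio was 10.8 over 6 genes of channels and small-molecule metabolism, 4.16 over 5 of glycosylation and 4.98 over 5 of secretion. UPP1 gave 18.5 and 21.1 CPM for M1, 71.6 and 70.6 for M2, 127 and 154 for M3, then 323 and 224 for M4. UPP1, uridine phosphorylase, was called at each step. SMS (spermine synthase) and CALU (calumenin) had M4 to M1 ratios of 2.78 and 2.75. GALNT3, which starts mucin-type O-glycans, had 36.2 and 31.6 CPM in M1 and 126 and 120.1 in M4 and was called at all 3 steps, B3GNT5, which starts lacto-series glycolipids, at the first and last. KCNQ3, a potassium channel subunit, had a mean of 0.142 CPM in M1 and 7.83 in M4, while of 39 other potassium channel genes tested 1 was higher and 9 were lower. The 5 genes of cell division and genome maintenance, among them POLQ, the polymerase of end joining, STIL, a centriole duplication factor, and INSC, an adaptor of spindle orientation, were ordered in all libraries. The stress genes GADD45A, PMAIP1, BAG2 and HSPA6 were also ordered in all 4 cases.

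Several of the gene lists had no gene among the 123. All 35 DNA replication and all 30 mitosis genes were measured and tested, and 26 and 28 of them were higher in M4 than in M1, but their median log2 ratios were 1.05 and 1.52 at the first step and -0.18 and 0.20 at the second. With the exchange of the M1 and M2 libraries 0 of the 35 and 0 of the 30 were called higher. None of 82 measured cytosolic ribosomal protein genes, 30 oxidative phosphorylation genes or 27 glycolysis and hypoxia genes was selected. Of the 83 ribosomal protein genes tested 69 were lower in M4 than in M1, and of the 30 oxidative phosphorylation genes 23, but without M4 replicate 1 each list had 9 such calls. Solute carriers held 1 member, SLC16A13, of 175 measured.

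The 123 genes lay on 23 chromosomes, all autosomes and the X. Chromosome 1 had 16, chromosome 3 had 15, and chromosomes 4 and 7 had 8 each. As a share of the measured genes this was 1.54% on chromosome 1, 2.55% on chromosome 3, 2.17% on chromosome 4 and 1.75% on chromosome 7, beside 1.22% overall. By arm, 3q had 9 of 298 measured genes, 1q 11 of 440, 8p 4 of 125 and 18q 4 of 114, and 20q had 0 of 182 and 17q 1 of 413. The 9 genes of 3q were B3GNT5, DCBLD2, FBXO45, MCF2L2, MYH15, POLQ, RAP2B, SIAH2 and WDR53. On 3q the genes that were not selected also stood higher, with a median log2 M4 to M1 ratio of 0.71 against 0.18 over all measured genes, and by step of 0.09, 0.45 and 0.13. On 1q the corresponding medians by step were 0.03, 0.35 and -0.23, and on 8p 0.08, -0.02 and 0.20. On 19q the other genes had a median of -0.46 from M1 to M4. The 3 selected genes there were ACP7, CEACAM5 and PLEKHF1, whose rise was required by the rule. The share of these regional shifts in the members' values was not tested.

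**Figure D5:**
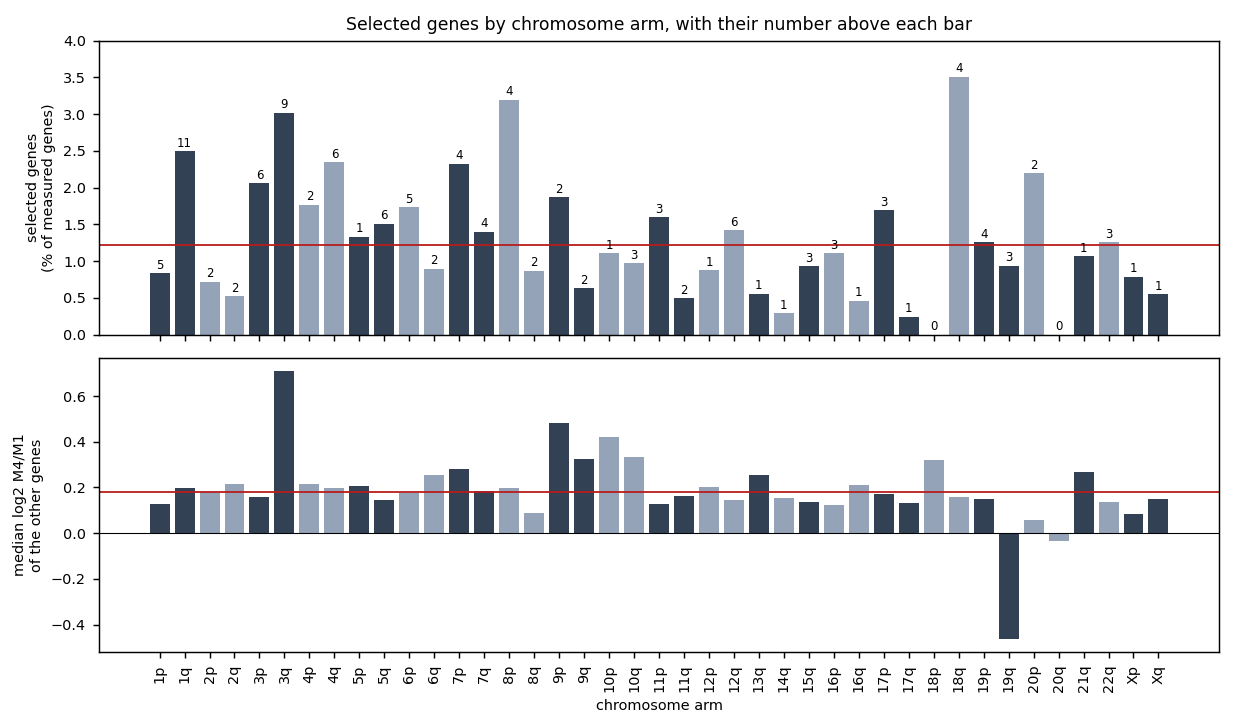
Chromosome arms along the horizontal axis. Upper bars give the selected genes as a percent of the measured protein-coding genes of the arm, with their number, and the red line the 1.22% overall; lower bars give the median log2 M4 to M1 ratio of the genes that were not selected, where 3q stands highest (0.71), 19q lowest (-0.46) and the red line is the overall 0.18.

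Some selected genes were neighbours. Among the measured genes in chromosome order, 6 pairs of the 123 were adjacent. The number of such pairs that scattered genes would give was not computed. In GRCh37 coordinates CRCT1 (chr1:152486958-152488484) and LCE3D (chr1:152551857-152552992) lay 63.4 kb apart, and SPRR2D (chr1:153012208-153014407), SPRR2A (chr1:153028596-153029988) and SPRR2E (chr1:153065611-153078660) followed each other at 14.2 and 35.6 kb. MCF2L2 (chr3:182895829-183146566, minus strand) contains B3GNT5 (chr3:182971041-183016292, plus strand) over 45252 bp, and WDR53 (chr3:196281048-196295545, minus strand) and FBXO45 (chr3:196295482-196315930, plus strand) share 64 bp at their starts. Reads of these overlapping pairs can be told apart only where counting used strand, which the sources used here do not state. The sixth pair, DEFB103B and MFHAS1 on chromosome 8, was 1353 kb apart. CXCL8 and EREG were 621 kb apart on chromosome 4, and IL24 and CD55 417 kb apart on chromosome 1. The 232 measured genes that flanked the 123 were called higher in M4 than in M1 in 58 cases (25.0%) and lower in 28 (12.1%), beside 22.0% and 13.9% of the 9925 measured and tested genes that were not selected.

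Antisense lncRNA genes overlapped 33 of the 123 genes, 38 in all, of which 18 had enough counts to be tested. Their own levels were not used in the selection. Of these 7 were higher in M4 than in M1 and 1 was lower, beside 15.6% and 15.8% of all tested genes. With DESeq2 6 were higher, without 1 library 5 or 6, and with the exchange of the M1 and M2 libraries 4. SPRY4-AS1, whose exons do not overlap those of SPRY4, had 0.0867 and 0.108 CPM for M1, 0.166 and 0.187 for M2, 0.570 and 0.590 for M3, then 0.969 and 0.697 for M4 (M4 against M1, log2 fold change 3.02, SE 0.50, adjusted p = 0.00413). RUSC1-AS1, antisense to FDPS with overlapping exons, was also higher (2.21, SE 0.40, adjusted p = 0.00573), as was HMGA2-AS1 (4.51, SE 0.90, adjusted p = 0.0082), whose call was lost without M4 replicate 1 (adjusted p = 0.0501) and with the exchange (adjusted p = 0.0743). The lower one was an unnamed lncRNA antisense to SMIM29, with 46.6 and 50.4 CPM in M1 and 20.4 in both M4 libraries (-1.31, SE 0.14, adjusted p = 0.000697). In 25 of the 38 pairs exons of the lncRNA and the protein-coding gene overlap, and reads there cannot be told apart without strand. A further 15 genes that are not protein coding met the same ratios, 9 of them lncRNAs, among them LINC00973, which had no count in M1 and reached 31.0 and 23.3 CPM in M4, LINC00941, with means of 1.04 CPM in M1 and 16.001 in M4, and LNCAROD, with 4.75 and 36.04.

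The threshold of 1.3 cut through a continuous range. Just inside it were SIAH2, INO80C and BTG3, with a smallest ratio of 1.303, 1.304 and 1.305, and just outside were ITGA5, PHLDB2 and PSMD2, with 1.293 each. Requiring every replicate of a line to reach 1.3 times every replicate of the line before left 42 of the 123, among them FDPS, INSIG1, INHBA, HBEGF, DUSP5, FOSL1, HMGA2, CXCL8, IL1A and KRT18. Leaving out each of the 8 libraries in turn, 45 of the 123 met the rule every time.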

How the data were processed

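RNA-seq of M1 to M4 acini (2 replicates each, grouped by the sample labels) was used as 1 table of expected counts per gene, which the authors deposited without normalization. Per the study's methods and the submitters' processing notes, they trimmed poly A+ selected paired-end reads with Trimmomatic, aligned them with STAR to hg19 (GRCh37) and estimated counts with RSEM on GENCODE 19; versions and the use of strand are not given in the sources used here. A gene with few reads has a fractional, uncertain expected count.

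Gene class and position came from GENCODE 44 on GRCh37, which lacks 1567 of the genes with a count. Rounded counts were fitted with edgeR 4.0.16 in R 4.3.3 (quasi-likelihood with robust estimation, TMM, genes kept by filterByExpr, all 8 libraries in a design with a mean per line), with DESeq2 1.42.0 as an alternative. SEs are those implied by the F statistic. Python 3.11.15 with pandas 2.3.3 did the rest. Relative to column sums, TMM scaling moved the M4 to M3 ratios of all genes by -0.13 and the M3 to M2 ratios by 0.08 on the log2 scale. The selection and fitting steps were tested on simulated data.

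The members, gene lists and roles were chosen with earlier results of these data known. Genes were named when they were among the 12 with the highest M4 mean, the 12 with the largest M4 to M1 ratio (at least 0.05 CPM in M1), called at all 3 steps, in a gene list, next to each other, at the threshold, or antisense partners that were called. Some genes are not reported here by name. Members named only within their role were picked after their values were seen. Alternatives were other scalings, ratios and minimums, other fits, a replicate block, each library left out and the exchange of 2 libraries. The p-values set differences against the spread between replicates of 1 derived line per stage, shared over the lines. The M2 replicates were much closer than those of the other lines (chi-square per degree of freedom 6.95 against 136 to 361).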

Additional observations from a re-analysis of the deposited data

How the results depend on the processing

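The number of genes meeting the rule was 238 with a ratio of 1.2, 57 with 1.5, 26 with 2, 694 with no minimum in M4, 42 with every replicate, 37 with the 2 libraries exchanged, and 120 to 181 without 1 library. Genes called higher in M2 than in M1 numbered 30, 47 with DESeq2, 65 with no filter on low counts, 0 with the exchange (0 also at an unadjusted p under 0.05, edgeR) and 0 to 26 without 1 library. For M3 against M2 they numbered 33, 72 with DESeq2, 89 with no filter, 7 with the exchange and 4 to 34 without 1 library, and for M4 against M3 they numbered 55, 14 with the exchange and 16 to 38 without 1 library. In M4 against M1, 123 were called, 92 with the exchange. The largest number on 1 chromosome was 16 (chromosome 1), 33 with a ratio of 1.2 (chromosome 3) and 8 with 1.5 (chromosome 1). Without M4 replicate 1 it was 16, on chromosome 3. Where a library was left out, the remaining one was assumed to vary like the other lines. Partners antisense to the 123 called higher numbered 7, 4 with the exchange and 5 to 6 without 1 library. Among other genes of the lists, calls in M4 against M1 became fewer when an M4 library was left out. This held for higher calls in the ATF4 and ERK lists and for calls in both directions in the ZNF genes. It also held for lower calls in the TGF-beta, receptor kinase, cytokine, ribosomal and oxidative phosphorylation lists. The refits of lists and partners without 1 library or with the exchange were chosen after seeing the data. The causes of these differences were not tested.

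Same-numbered replicates of different lines correlated at -0.02 to 0.12 in their deviations, with the highest value between M3 and M4. Whether same-numbered libraries were handled together was not tested. A replicate block called 32, 34, 47 and 123 genes in the 4 comparisons, and 6 antisense partners. Over 888 refits of 74 named genes no direction was reversed and 37 lost the call, among them an unnamed antisense partner of HMGA2 under DESeq2, the block and each library left out. These refits compared M4 with M1. Most of the named genes were selected as higher in M4 than in M1 or named because that comparison called them. The lack of reversals was therefore largely fixed in advance. The depth limits genes with under 10 counts in M1, whose first ratio rests on few reads.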

Other observations

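Signalling genes of the 123 not described above included regulators of kinases. Levels of PEA15 were 63.6 and 49.5 CPM (M1), 79.97 and 78.99 (M2), 167 and 148 (M3), then 234 and 204 (M4). PEA15 binds ERK and holds it in the cytoplasm, and its libraries did not overlap between successive lines. For MAPK13 the M1 libraries had 42.6 and 54.4 CPM, the M2 libraries 66.5 and 65.6, the M3 libraries 92.7 and 82.96, the M4 libraries 140.1 and 175. MAPK13 is the delta form of p38, which responds to stress. In line order SH2B3 measured 3.59 and 3.28, 5.09 and 4.16, 11.6 and 16.02, then 25.97 and 50.8 CPM. SH2B3 (LNK), an adaptor that restrains cytokine receptors, was called at the last 2 steps. PHLDA2, RIPK2, a kinase below the NOD receptors, and RTKN2 had M4 to M1 ratios of 5.30, 3.32 and 5.44, and all 3 were in order in every library.

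The secretory and adhesion genes left were few. KDELR3 counts came to 2.97 and 5.21 CPM with M1, 10.02 and 8.68 with M2, 20.6 and 17.2 with M3, then 53.04 and 39.3 with M4. KDELR3 returns escaped chaperones to the endoplasmic reticulum. TSPAN5 gave 1.11 and 3.02 CPM for M1, 7.16 and 6.24 for M2, 13.2 and 8.22 for M3, then 42.5 and 33.8 for M4. TSPAN5, a tetraspanin that partners the protease ADAM10, was the only tetraspanin selected of 12 measured, and it was called at the last step. SYT1, a calcium sensor of exocytosis, DCBLD1 and B4GALT6, a lactosylceramide synthase, had M4 to M1 ratios of 11.9, 4.04 and 4.55.

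The rest belonged to diverse roles. HAUS6, a subunit of the augmin complex of the spindle, CDR2, the kinesins KIFC3 and KIF3C and the spectrin SPTBN5 had M4 to M1 ratios of 5.02, 3.63, 3.62, 5.52 and 12.3. MSANTD3, KLF12 and ARID3B, which bind DNA or carry DNA-binding domains, had 3.92, 4.05 and 5.54. MCOLN3, a cation channel of lysosomes, had 5.41, and LETM2 15.7. The secreted enzymes ADAMTS6 and TGM4, a metalloprotease and a transglutaminase, were below 1 CPM in M1 and reached 10.9 and 3.48 CPM, and 6.81 and 4.13 CPM, in the M4 libraries. The libraries of SIRPB2 and HSH2D overlapped between M1 and M2, and those of SIRPB2 also between M2 and M3. CFAP20DC, with 0.582 and 0.766 CPM in M1 and 3.78 and 3.93 in M2, had its largest ratio at the first step, while SH3TC2, VOPP1 and SPATA5 had M4 to M1 ratios of 5.94, 3.87 and 3.23.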
